A study of Mus musculus with 6 samples.

Results

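The EGF family was followed in whole liver of FRG mice through 10 genes, the ligands Egf, Tgfa, Hbegf, Areg, Ereg and Btc, the receptors Egfr, Erbb2 and Erbb3, and the receptor inhibitor Errfi1. A probe set was taken when the array annotation named a listed gene and no other, which gave 21 probe sets of 9 genes among 45037 probe sets of 18193 genes. No probe set named Areg alone, and Areg was not analysed here. All mice were male FRG mice on a C57Bl/6J background, lacking Fah, Rag2 and Il2rg, and 12 weeks old. They were fed a chow low in tyrosine and phenylalanine and drank water with 3% dextrose. The 3 FRG+NTBC mice received NTBC (nitisinone), a drug that blocks tyrosine breakdown upstream of Fah, at 16 mg/L without interruption, and the 3 FRG-7dNTBC mice had been taken off it at 11 weeks and stayed without it for 7 days. Both groups carry the same knockout, so no targeted gene checks their labels, and the comparison is between presence and absence of the drug in Fah-deficient livers. FRG mice lack T, B and NK cells of their own. Each mouse gave 1 Affymetrix array, and the deposited values are linear intensities.

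EGF family ligands are made as membrane-bound precursors, and proteases of the ADAM family cut them free at the cell surface. A ligand binds EGFR and makes it pair with itself or with another receptor of the family, after which the kinase domains phosphorylate each other and start the RAS to ERK and the PI3K to AKT cascades. ERBB2 binds no known ligand and ERBB3 has little kinase activity of its own, so both act mainly as partners. In the liver EGFR is abundant on hepatocytes and its ligands are mitogens for these cells. ERRFI1, also called MIG6, binds the kinase domain of EGFR and inhibits it.

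Among the members that passed, ligands and receptors moved in opposite directions. Egfr and Erbb3 were lower in FRG-7dNTBC livers, whereas the ligand genes Tgfa, Hbegf and Btc were higher. With a call defined as a limma adjusted p under 0.05, 5 of the 21 probe sets were higher and 6 lower, against 14.0% and 13.9% of all probe sets, and 10 did not pass. The 5 higher ones belonged to ligands and the 6 lower ones to receptors. Log2 differences, also called log2 fold changes, are given as FRG-7dNTBC less FRG+NTBC throughout, and their median was 0.56 over 9 probe sets of ligands and -0.89 over 10 of receptors, and the median of all probe sets was -0.08. At the brightest probe set of each gene, ranked by its mean log2 value on all 6 arrays, 3 of 9 genes were higher and 2 lower, against 17.4% and 12.7% of all genes. Probe sets of a gene measure largely the same transcripts and 7 of the 21 belong to Egfr, so the count by gene is the one to read beside these shares. The values of the groups did not overlap at 14 of the 21 probe sets, and at 44.1% of all probe sets. Scaling all arrays to one 75th percentile, which moved the median log2 difference of all probe sets by -0.13, gave 3 member probe sets higher and 8 lower.

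**Figure D1:**
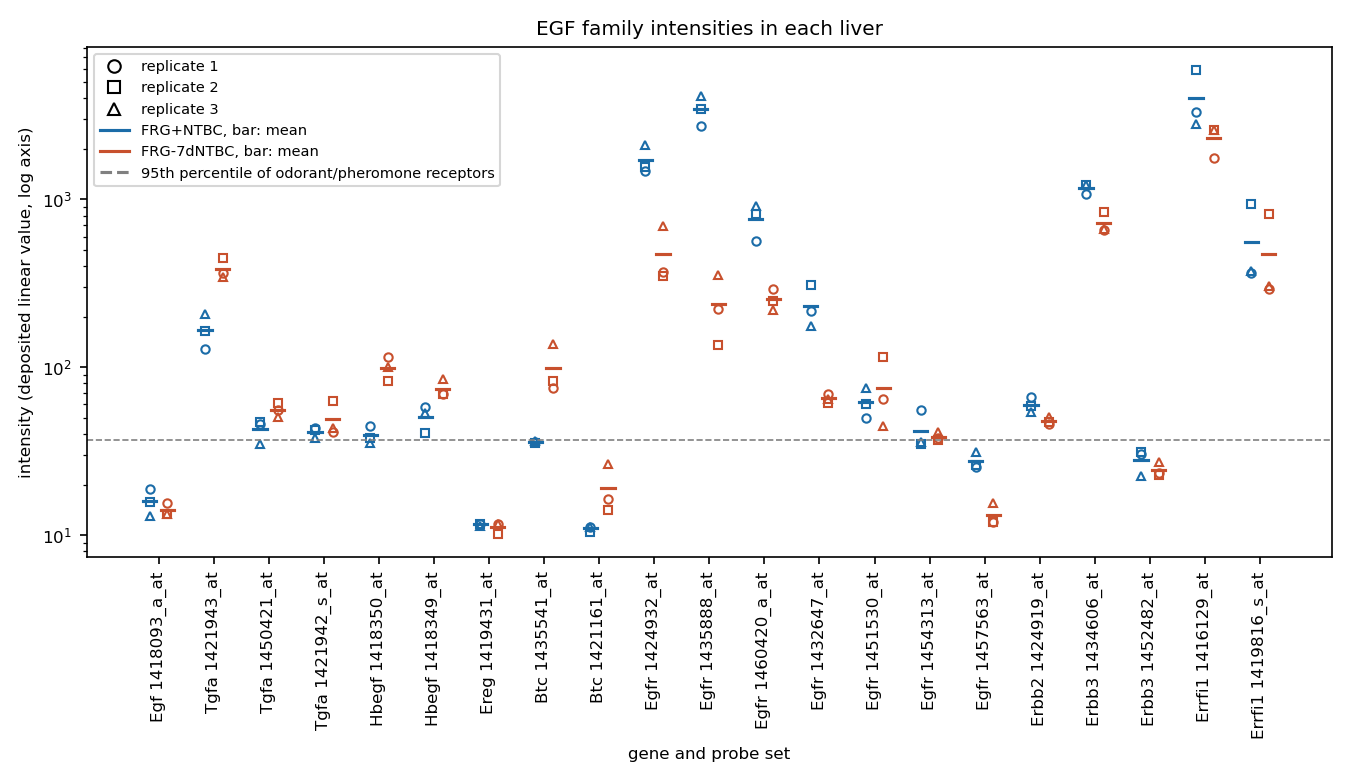
Intensity (vertical log axis, deposited linear value) of each of the 21 member probe sets in each of 6 livers, with 3 FRG+NTBC mice in blue, 3 FRG-7dNTBC mice in red, a symbol for each replicate number and a bar at each group mean. The dashed line, at 36.7, is the 95th percentile of 80 probe sets of odorant and pheromone receptors, and the gap between blue and red is widest for Egfr probe set 1435888_at.

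RefSeq promoter sequence was found for 7 of the 10 genes. The 250 bases before the annotated start are shown for Egfr, the receptor that fell most, and for Btc, a ligand that rose, so that the regions in front of genes that moved in opposite directions can be read side by side. They were searched on both strands for the AP-1 motif TGANTCA, the cyclic AMP response element TGACGTCA, the antioxidant response element TGACNNNGC, the E-box CACGTG and the GC box GGGCGG. Capitals mark a match, in GRCm38.p6 on the + strand for Egfr at chr11:16751953-16752202 and on the - strand for Btc at chr5:91402995-91403244.
Egfr: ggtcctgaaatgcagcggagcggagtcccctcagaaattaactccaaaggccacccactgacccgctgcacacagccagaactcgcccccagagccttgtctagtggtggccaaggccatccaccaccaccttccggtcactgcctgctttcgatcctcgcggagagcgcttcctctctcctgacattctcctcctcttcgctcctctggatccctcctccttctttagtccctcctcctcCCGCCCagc
Btc: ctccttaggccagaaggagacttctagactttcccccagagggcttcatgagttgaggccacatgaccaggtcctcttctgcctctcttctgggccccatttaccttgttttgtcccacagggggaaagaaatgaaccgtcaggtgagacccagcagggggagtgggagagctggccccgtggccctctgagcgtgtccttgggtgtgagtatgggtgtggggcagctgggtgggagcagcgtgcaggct
The Egfr stretch held 1 GC box, 9 bases before the start, and the Btc stretch held no match to these letters. A single pair cannot show a contrast by direction. The window of Tgfa, which also rose, held GC boxes 126 and 15 bases before a start. Both lay past an earlier annotated start of the gene, and the 66 bases before that earlier start held no match. Windows of Errfi1 and Areg held GC boxes too. A GC box was present in 32.7% of 32851 RefSeq windows of this length. Among the other members, TGACGTCA, found in 1.55% of windows, lay 51 bases before a start of Errfi1 and 61 bases before the start of Areg. No window of a member held the AP-1 or the antioxidant response letters, which 6.75% and 10.2% of all windows held. A match describes letters only and not a bound factor.

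Among the ligands, Hbegf, the heparin-binding growth factor of the family, was higher in FRG-7dNTBC livers at both of its probe sets. Probe set 1418350_at read 44.6, 38.0 and 35.3 in FRG+NTBC mice and 115, 82.7 and 99.7 in FRG-7dNTBC mice. Every FRG-7dNTBC value lay above every FRG+NTBC value, with group means of 39.3 ± 4.81 and 99.3 ± 16.3 (mean ± SD, n = 3 each). This is 2.51-fold, a log2 difference of 1.33 (SE 0.16, limma adjusted p = 0.000812). The FRG+NTBC values lay around 36.7, the 95th percentile of 80 probe sets of odorant and pheromone receptors, which stands here for background, so the size of the rise is not exact. Probe set 1418349_at read 58.1, 40.8 and 53.5 against 69.1, 69.5 and 85.0, again without overlap. Its log2 difference was smaller, at 0.56 (SE 0.17, limma adjusted p = 0.0402). That call was lost when any of 5 of the 6 mice was left out, at adjusted p-values of 0.0552 to 0.126, and remained only without FRG+NTBC replicate 1.

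Tgfa, the ligand that hepatocytes themselves make during regeneration, was called at 1 of its 3 probe sets. Probe set 1421943_at read 128, 164 and 208 with NTBC and 362, 446 and 343 without, so that the groups were well apart. Means were 167 ± 40.0 and 383 ± 54.8 (mean ± SD, n = 3 each), a 2.33-fold difference (log2 difference 1.22, SE 0.20, limma adjusted p = 0.00288). The other probe sets lay lower on the scale. For 1450421_at the values were 46.2, 47.2 and 35.0 against 55.3, 61.0 and 50.2, which did not overlap but did not pass (log2 difference 0.38, 95% confidence interval 0.02 to 0.75, limma adjusted p = 0.11). For 1421942_s_at the groups overlapped and FRG-7dNTBC replicate 2 stood highest, at 63.1 (log2 difference 0.23, 95% confidence interval -0.19 to 0.65). All 3 Tgfa probe sets were designed from the same sequence record.

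Btc, betacellulin, a ligand of EGFR and ERBB4, was also higher at both probe sets. Probe set 1435541_at was nearly constant in FRG+NTBC mice, at 35.8, 35.5 and 36.2, and reached 75.1, 83.3 and 137 in FRG-7dNTBC mice. The group means were 35.8 ± 0.378 and 98.5 ± 33.7 (mean ± SD, n = 3 each), which is 2.65-fold (log2 difference 1.41, SE 0.22, limma adjusted p = 0.0024). FRG-7dNTBC replicate 3 was the highest, and without it the log2 difference was 1.14. The FRG+NTBC values lay at the upper end of the range of odorant and pheromone receptors, genes not known as liver genes, whose 80 probe sets had a median of 11.9 and a 95th percentile of 36.7. The size of this rise is not exact either. Probe set 1421161_at stayed under that percentile in both groups, at 11.2, 10.5 and 11.2 against 16.3, 14.2 and 26.4, and replicate 3 was again the highest. Its log2 difference of 0.74 (SE 0.22, limma adjusted p = 0.0393) lost its call without any of 4 of the 6 mice, at adjusted p-values of 0.0707 to 0.119, and kept it without FRG-7dNTBC replicate 2 or replicate 3.

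Egf and Ereg could not be judged. The single probe set of Egf, the ligand that names the family, read 18.9, 15.8 and 13.0 in FRG+NTBC mice and 15.6, 13.4 and 13.4 in FRG-7dNTBC mice. The single probe set of Ereg, epiregulin, read 11.7, 11.7 and 11.3 against 11.6, 10.2 and 11.7. Both genes overlapped between the groups and stayed under the 95th percentile of the odorant and pheromone receptors. Log2 differences were -0.16 (95% confidence interval -0.54 to 0.22) for Egf and -0.05 (95% confidence interval -0.33 to 0.22) for Ereg. Values this low do not show whether these genes changed.

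**Figure D2:**
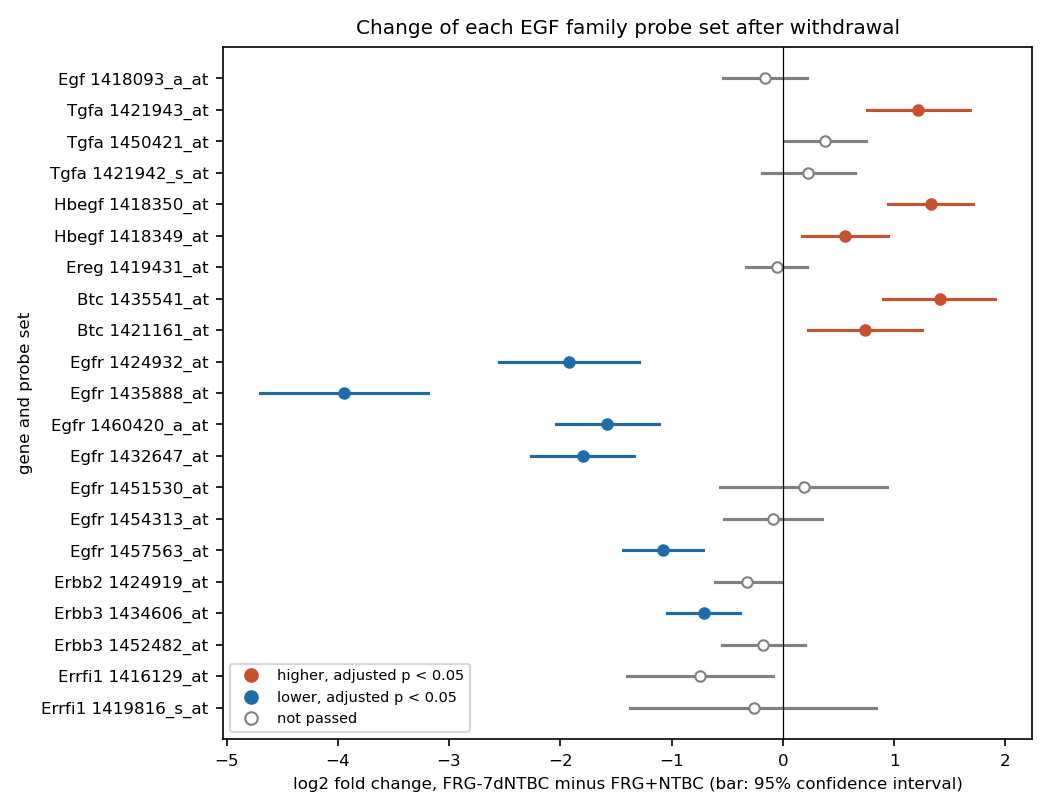
Log2 difference (horizontal axis, withdrawn less treated mice) of each member probe set with its 95% confidence interval from limma, 3 mice per group. The 5 filled red points, called higher, belong to Tgfa, Hbegf and Btc, and the 6 filled blue points, lower, to Egfr and Erbb3, with 10 open points that did not pass.

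Egfr, the receptor of all the ligands above, had the largest fall among the members. At its brightest probe set, 1424932_at, the FRG+NTBC livers read 1468, 1563 and 2106 and the FRG-7dNTBC livers 370, 347 and 695. Each withdrawn mouse was below each treated mouse, and FRG-7dNTBC replicate 3 kept the highest level of the withdrawn mice. Means fell from 1712 ± 344 to 471 ± 194 (mean ± SD, n = 3 each), a 3.78-fold difference (log2 difference -1.92, SE 0.28, limma adjusted p = 0.00163). Probe set 1435888_at fell 15.4-fold, from 2721, 3468 and 4124 to 223, 135 and 355. Its log2 difference of -3.94 (SE 0.33, limma adjusted p = 0.000168) was the 52nd largest fall of the 45037 probe sets, of which 0.637% were at least 5-fold lower at an adjusted p of 0.05 or less.

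A further 3 of the 7 Egfr probe sets were lower. Probe set 1460420_a_at read 568, 815 and 917 with NTBC and 292, 249 and 220 without, a log2 difference of -1.58 (SE 0.20). Probe set 1432647_at went from 215, 307 and 177 to 69.5, 61.0 and 64.9, a log2 difference of -1.80 (SE 0.20). Probe set 1457563_at was in the range of the odorant and pheromone receptors in both groups and had a log2 difference of -1.08 (SE 0.16). None of these 3 overlapped between the groups, and their adjusted p-values from limma were 0.00097, 0.000535 and 0.0017.

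The last pair of Egfr probe sets did not pass, and their groups overlapped. Probe set 1451530_at read 49.5, 60.5 and 75.6 against 64.9, 115 and 44.9, a log2 difference of 0.19 (95% confidence interval -0.56 to 0.94). It took its sign from FRG-7dNTBC replicate 2, without which the log2 difference was -0.18. Probe set 1454313_at read 55.3, 34.8 and 35.8 against 37.8, 37 and 41.1, a log2 difference of -0.09 (95% confidence interval -0.53 to 0.35). Its values lay at about the level of the odorant and pheromone receptors in both groups, where a fall can be missed. Probe set 1457563_at, lower still, was called lower, and whether 1454313_at missed a fall was not tested. Each of these probe sets was designed from the same sequence record as a probe set that fell, 1451530_at from that of 1424932_at and 1454313_at from that of 1432647_at, and the 7 come from 5 records in all. The measured size of the Egfr change thus differed among probe sets, and the positions of the probes on the transcripts were not analysed here.

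The disagreement was also measured within each mouse, as the log2 ratio of a probe set to 1424932_at on the same array. The ratio of 1435888_at ran from 0.89 to 1.15 in FRG+NTBC mice and from -1.36 to -0.73 in FRG-7dNTBC mice, a difference in log2 difference of -2.02 (SE 0.20). For 1451530_at and 1454313_at the differences were 2.11 (SE 0.69) and 1.83 (SE 0.43), and the ratios of the groups did not overlap. The log2 differences of 1451530_at and 1454313_at themselves were 0.19 and -0.09, so their values here mostly restate the fall of 1424932_at. Probe set 1454313_at lay near background in both groups, and the part of that in the disagreement was not tested. Each of these gave p = 0.1 in a two-sided exact permutation test over mice, which is the smallest p that 3 mice against 3 allow, and 0.15 adjusted over the 12 such comparisons made among members. Against this, 1460420_a_at and 1432647_at differed from 1424932_at by 0.34 (SE 0.44) and 0.12 (SE 0.48), with overlapping ratios and exact permutation p-values of 0.5 and 0.8.

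**Figure D3:**
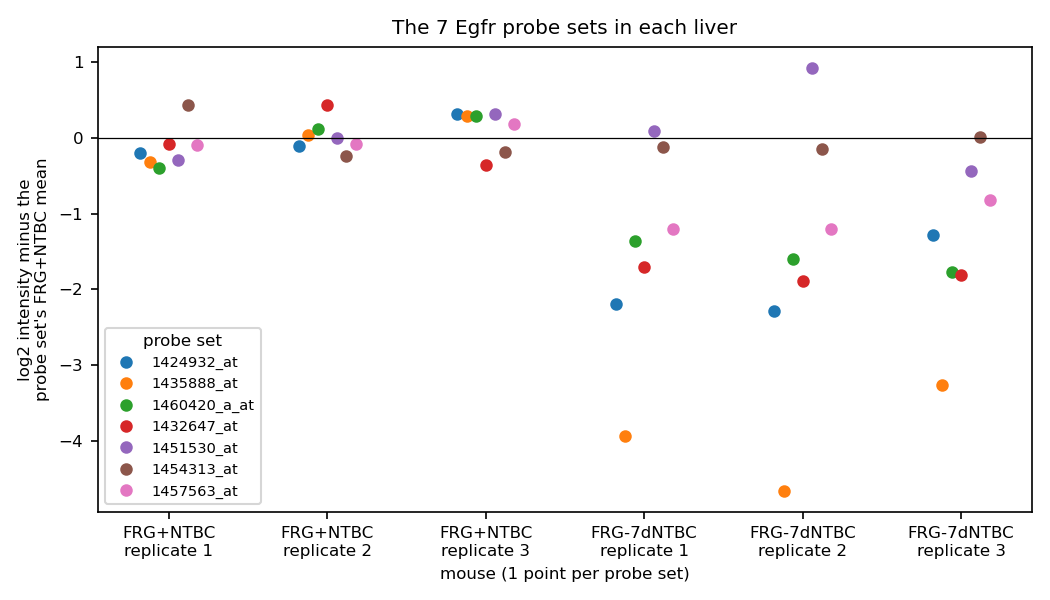
Log2 intensity of the 7 Egfr probe sets minus the mean of the FRG+NTBC mice of the same probe set (vertical axis) in each of 6 livers, 1 colour per probe set. In the FRG-7dNTBC mice 1435888_at lies lowest, 4 others lie below all of their FRG+NTBC values, and 1451530_at and 1454313_at lie on both sides of 0.

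Erbb3, a partner receptor that also binds neuregulins, was lower at its brightest probe set. Probe set 1434606_at read 1082, 1218 and 1209 in FRG+NTBC mice and 657, 838 and 662 in FRG-7dNTBC mice. The groups did not overlap, and the means were 1170 ± 75.8 and 719 ± 103 (mean ± SD, n = 3 each). The fall was 1.64-fold (log2 difference -0.71, SE 0.14, limma adjusted p = 0.00743), smaller than that of Egfr at 1424932_at by the values given. The other Erbb3 probe set, 1452482_at, stayed under the level of the odorant and pheromone receptors and had a log2 difference of -0.18 (95% confidence interval -0.55 to 0.20).

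Erbb2, the receptor with no known ligand, read 66.3, 58.9 and 53.8 at its single probe set in FRG+NTBC mice and 46.2, 46.9 and 50.2 in FRG-7dNTBC mice. All 3 withdrawn mice were below all 3 treated mice, but the difference was small and did not pass (log2 difference -0.32, SE 0.13, limma adjusted p = 0.105). It passed only after scaling to one 75th percentile, with a log2 difference of -0.45 and an adjusted p of 0.0447.

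Errfi1, the inhibitor, varied among mice of the same group. Probe set 1416129_at read 3327, 5873 and 2817 with NTBC and 1758, 2592 and 2574 without. The FRG-7dNTBC values were all lower, yet the comparison did not pass (log2 difference -0.74, SE 0.28, 95% confidence interval -1.40 to -0.09, limma adjusted p = 0.0885). It passed after scaling to one 75th percentile (-0.87, adjusted p = 0.0424) and with array weights (-1.07, adjusted p = 0.0173). Probe set 1419816_s_at read 362, 936 and 375 against 294, 820 and 304. There, replicate 2 of each group stood well above the others, and the groups overlapped (log2 difference -0.26, 95% confidence interval -1.37 to 0.84). The labels do not say that equal replicate numbers share a litter, a cage or a day.

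At the brightest probe set, the calls of Tgfa, Hbegf, Btc, Egfr and Erbb3 passed in every alternative that kept the probe set, leaving out each mouse in turn included, except that Erbb3, at 1.64-fold, missed the 2-fold threshold. Of all 21 member probe sets, 3 were called at 2-fold or more higher and 5 at 2-fold or more lower. Over all probe sets these shares were 7.61% and 5.12%. Without moderation of the variances, 3 member probe sets were higher and 6 lower.

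The rest of the pathway was described through 6 gene lists, each gene at its brightest probe set. Over all genes 17.4% were higher and 12.7% lower, with a median log2 difference of -0.05, and each count here and among the cell type markers is to be read against these shares. Among 6 other ligands and receptors of the family, 2 were higher and none was lower, with a median of 0.03. Of these 6, all 5 except Nrg4 lay under the level of the odorant and pheromone receptors in both groups. Lack of a call is not read at such levels, and the median says little about change. Nrg4, a neuregulin that activates ERBB4, rose from 51.4 ± 6.9 to 392 ± 125 (mean ± SD, n = 3 each), a log2 difference of 2.89 (SE 0.24, limma adjusted p = 0.00017), and its other probe set was called too. Nrg1, which binds ERBB3 and ERBB4, went from 20.9 to 31.8, under the level of the odorant and pheromone receptors in both groups (log2 difference 0.61, SE 0.14, adjusted p = 0.0145). Erbb4, the receptor of Nrg4, stood at 5.58 ± 0.365 and 5.02 ± 0.42, near the bottom of the scale.

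Genes of ligand release were higher in 6 of 10 cases and lower in none, with a median log2 difference of 0.64. Of the 10, 3 lay under the level of the odorant and pheromone receptors in both groups. Adam17, the protease that frees Tgfa, Hbegf and other ligands, rose by 0.93 (SE 0.14, limma adjusted p = 0.00187) and all 3 of its probe sets were called. Adam10, which cuts Egf and Btc, rose by 0.84 (SE 0.23) with 2 of its 4 probe sets called, and Rhbdf1 and Rhbdf2, the inactive rhomboids that carry ADAM17 to the cell surface, by 0.81 (SE 0.13) and 0.71 (SE 0.15). Timp3, an inhibitor of ADAM proteases, was among the 6 with 0.57 (SE 0.16) and did not pass after scaling to one 75th percentile.

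Adaptors and kinases between receptor and nucleus went both ways, with 6 of 20 measured genes higher, 7 lower and a median of -0.12. Map2k1, the ERK kinase MEK1, rose by 1.47 (SE 0.16) and the PI3K subunit Pik3cb by 1.32 (SE 0.23). The RAF kinase gene Araf fell by 1.44 (SE 0.21), the docking protein Gab1 by 1.39 (SE 0.21) and the adaptor Grb2 by 0.48 (SE 0.15). After scaling to one 75th percentile, 3 of these genes were higher and 8 lower. Of 14 genes of receptor turnover and inhibition, 3 were higher and 2 lower, shares near those of all genes, with a median of 0.06, and 1 and 3 after that scaling. The ubiquitin ligase Cblc fell by 1.24 (SE 0.20), with 1 of 2 probe sets called, and the phosphatase Ptprj by 0.80 (SE 0.12), while Socs5 rose by 0.85 (SE 0.15) and Cbl, the main ubiquitin ligase of EGFR, by 0.68 (SE 0.20). The rise of Cbl did not pass after the scaling (adjusted p = 0.0731).

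Transcripts that ERK activity is known to induce were mostly higher where they moved. Of 10 feedback inhibitors of the ERK cascade, 5 were higher and 1 lower, with a median of 0.54. The ERK phosphatase gene Dusp6 rose from 499 ± 22 to 3669 ± 467 (mean ± SD, n = 3 each), a log2 difference of 2.87 (SE 0.14, limma adjusted p = 2.14e-05). Dusp4 rose by 2.63 (SE 0.16), Dusp10, which acts on p38 and JNK, by 1.10 (SE 0.17) and Spred1 by 0.93 (SE 0.17), with 4 of its 8 probe sets called. Dusp4 started at 34, within the range of the odorant and pheromone receptors, so its rise has no exact size. The lower gene was Spry4, a Sprouty inhibitor of the cascade, which fell by 0.66 (SE 0.16) and had 1 of 4 probe sets called. Of 17 ERK-induced transcripts, 10 were higher and none lower, with a median of 1.54, and Phlda1 was lower (-0.75, limma adjusted p = 0.0341) only after scaling to one 75th percentile. Klf6 rose by 2.63 (SE 0.16), the urokinase receptor gene Plaur by 2.55 (SE 0.21), Ier3 by 2.46 (SE 0.26), Jun by 2.20 (SE 0.26) and Fos by 1.64 (SE 0.29). Ier3 (32.6) and Fos (37.5) stood at or under the receptor level of 36.7 with NTBC, so the sizes of their rises are not exact. The same holds for Fosl1 (19.9) and Etv5 (23.6), also called higher. Under 36.7 in both groups lay 3 of the 17, among them Egr2, called higher at 7.2 and 11.5. Against these rises, the early response gene Junb had a log2 difference of -0.22 (adjusted p = 0.582) and cyclin D1 (Ccnd1) of 0.34 (adjusted p = 0.603). Many signals besides EGF receptors induce these genes, so their levels do not measure receptor activity.

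**Figure D4:**
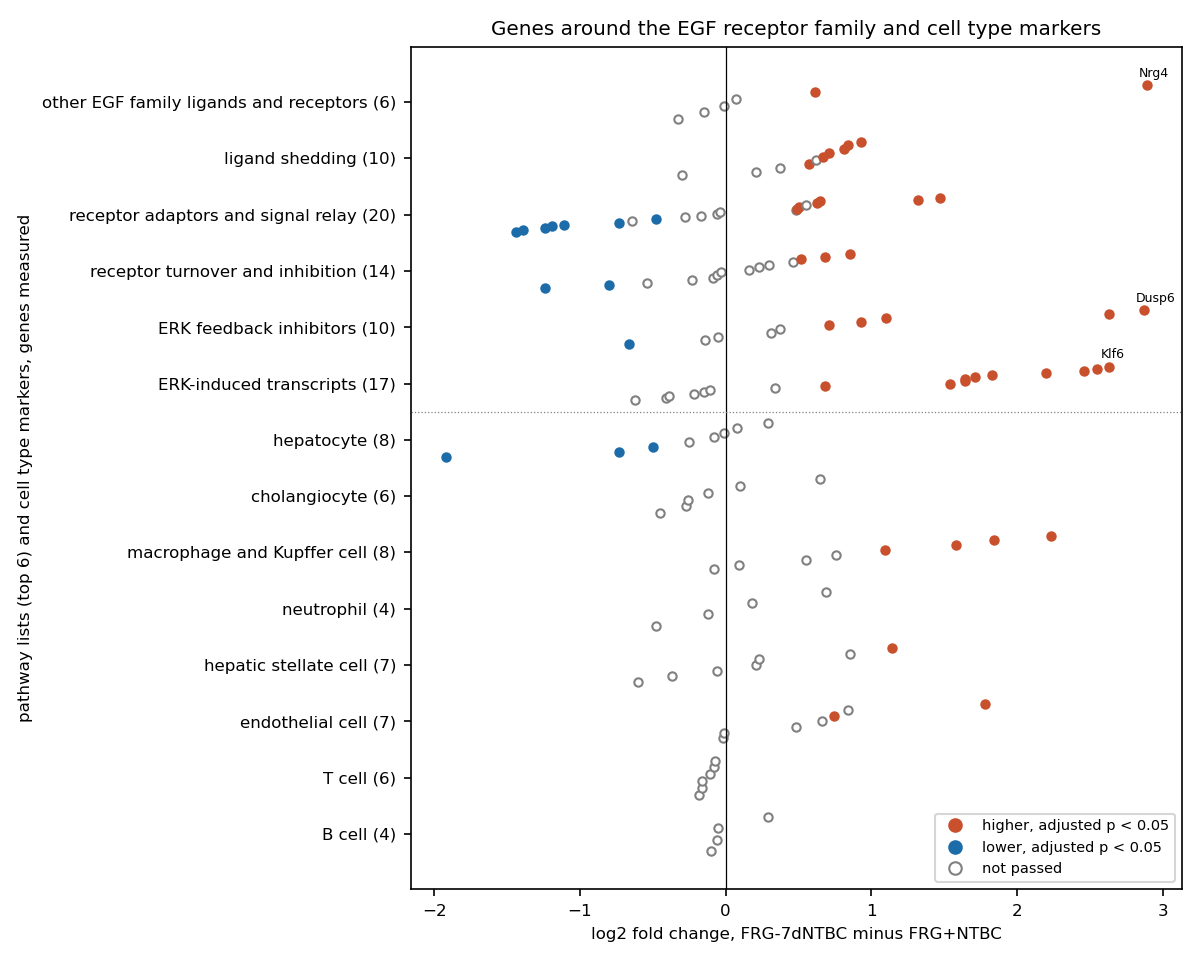
Log2 difference (horizontal axis, withdrawn less treated mice) of each measured gene of 6 pathway lists and 8 cell type marker lists, 1 point per gene at its brightest probe set, with the number measured in brackets. Filled points were called, in red when higher and in blue when lower, and the named genes are the largest rises in their lists: Nrg4 at 2.89, Dusp6 at 2.87 and Klf6 at 2.63.

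The tissue label was checked against markers, whose summed intensity was compared between groups. Of 8 hepatocyte markers 3 were lower and none higher (summed level 106225 to 109061 with NTBC, 97548 to 102599 without). Alb, albumin, stood at 25775 ± 728 and 27306 ± 664, at or near the top of the scale (in each FRG-7dNTBC mouse it was the highest value of the array), as did Ttr and Apoa1. These 3 make up most of the sum, and a change in them may not be readable there, so neither Alb nor the sum measures hepatocyte content. Of the less bright markers, Tat fell by 1.92 on the log2 scale (SE 0.27), Cps1 by 0.73 and Hnf4a by 0.50. Hnf4a was called at 1 of its 4 probe sets, and Asgr1 (0.29) and Apob (-0.25) did not pass. Of 8 macrophage and Kupffer cell markers 4 were higher (summed level 1803 to 2801 with NTBC, 2261 to 5825 without). Cd68 rose by 2.23, Cd5l by 1.84, Vsig4 by 1.58 and Marco by 1.09, whereas Clec4f (0.55) and Adgre1 (-0.08) did not pass. Cd68 (27.3) and Marco (26.4) were under 36.7 with NTBC, and their rises have no exact size. Lyve1 (1.78) and Clec4g (0.74) passed among 7 endothelial markers (1421 to 2327 and 2422 to 3193), and Lrat (1.14) among 7 stellate cell markers (854 to 1262 and 922 to 2186). Of 2 probe sets each, 1 was called for Marco, Clec4g and Lrat. None of 6 cholangiocyte markers (205 to 243 and 179 to 255, with Krt19 at 44.1 and 36.6), 4 neutrophil markers (106 to 166 and 110 to 203), 6 T cell markers (260 to 294 and 246 to 263) and 4 B cell markers (103 to 119 and 102 to 115) passed. In that order, 3, 1, 3 and 3 of these markers lay under 36.7 in both groups, and their lack of a call is not read. After scaling to one 75th percentile, Krt7 (-0.58, limma adjusted p = 0.0345) and the stellate cell marker Des (-0.50, limma adjusted p = 0.0255) were lower. Outside the brightest, 1 of 2 Epcam and 1 of 5 Cd8a probe sets were called, and 3 of 5 of the endothelial marker Fcgr2b. The direction of these calls was not analysed here. The part of other cell types in the rise of Hbegf, Tgfa and Btc was not tested, and in whole liver fewer cells of a type and less RNA per cell cannot be told apart. The fall of Egfr stood beside a fall of 3 of the 8 hepatocyte markers, and the part of hepatocyte number in it was not tested.

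The genes whose pattern over the 6 arrays lay nearest to Egfr at 1424932_at were D130051D11Rik, Hook1 and Cyld. Their Euclidean distances, between log2 values centred on the FRG+NTBC mean, were 0.30, 0.39 and 0.41, and their log2 differences -1.87, -1.81 and -1.94. Nearest to Tgfa at 1421943_at, the ligand probe set of highest mean, were Zbtb41, Abce1 and Hipk2, at distances of 0.14, 0.15 and 0.17 and log2 differences of 1.20, 1.23 and 1.27. Such a distance mostly says that genes moved by a similar amount.

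Array medians were slightly lower in FRG-7dNTBC mice, and array quality itself was not analysed here. Median intensity over all probe sets was 35.3 to 36.5 in FRG+NTBC and 33.1 to 34.3 in FRG-7dNTBC mice, and log2 values of 2 arrays correlated across probe sets at 0.988 to 0.993 for treated mice and 0.98 to 0.99 for withdrawn mice, and at 0.93 to 0.955 for a treated and a withdrawn mouse. Of all probe sets 27.9% were called, so a call of a single gene is a frequent event in this comparison.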

How the data were processed

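Liver RNA of 6 mice was hybridised to Affymetrix mouse expression arrays. The authors made the deposited intensity values by RMA, which corrects background, quantile-normalizes the arrays and summarizes the probes of a set. The tool in the submitters' processing notes is the Transcriptome Analysis Console. The log2 of the deposited values lies on steps of 0.01. The values are linear and their log2 was taken here. Gene names come from the platform annotation, which gives a single symbol for 34945 probe sets, several for 932 and none for 9160.

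A 2-group model was fitted to all 45037 probe sets by limma 3.58.1 under R 4.3.3 (lmFit, then eBayes, no covariate), followed by Benjamini-Hochberg adjustment across the whole table. A call is an adjusted p under 0.05. With 3 mice per group the number of arrays limits precision. The fit was tested on simulated data. Every member probe set is reported. In other lists up to 4 called genes with the largest change and the best known gene are named. Added after their values were seen were Junb, Ccnd1, Phlda1, Fosl1, Etv5, Egr2, Spry4, Timp3, Clec4f, Ttr, Apoa1, Krt7, Epcam, Cd8a, Des, Asgr1, Apob and Fcgr2b. Areg, 6 marker genes and some other listed genes were not analysed here. The members and lists were chosen with earlier results of these data known.

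Alternatives were 75th percentile scaling, quantile normalization, leaving out dim probe sets, moderation with an intensity trend, unmoderated variances, weighting of arrays, dropping probe sets of more than 1 possible transcript, a block for the replicate number, omission of each mouse, and a 2-fold threshold. Promoters are from RefSeq on GRCm38.p6.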

Additional observations from a re-analysis of the deposited data

How the results depend on the processing

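Scaling to one 75th percentile, the loss of moderation and a 2-fold threshold each left 3 of the 5 higher member probe sets called, and leaving out a mouse left 3 to 4, with 3 without FRG+NTBC replicate 2, FRG+NTBC replicate 3 or FRG-7dNTBC replicate 1. Lower member probe sets numbered 5 to 8 throughout. Over all probe sets, 3141 were higher and 3336 lower without moderation, against 6284 and 6262, and 9669 were lower after 75th percentile scaling. Leaving out a mouse gave 4390 to 6815 higher and 3864 to 6400 lower, the fewest lower (3864) when FRG+NTBC replicate 2 was omitted, and 4125 when FRG-7dNTBC replicate 1 was. Erbb2 (-0.45) and Errfi1 (-0.87) passed after 75th percentile scaling, and Errfi1 (-1.07) with array weights. That scaling gave 1 lower gene among the other family members and 1 among the ERK-induced transcripts, 3 higher genes in the signal relay and 1 in receptor turnover. Sign changes were confined to values that had not passed: Ereg was at 0.05 after quantile normalization and at -0.09 to 0.01 over the omitted mice, Egfr 1451530_at at -0.18 to 0.50, Egfr 1454313_at at -0.21 to 0.13 and Errfi1 1419816_s_at at -0.75 to 0.19. Omitting a mouse or quantile normalization, tried for the differences between probe sets after seeing the data, turned the sign of Egfr 1432647_at against 1424932_at (-0.22 to 0.44 over the omitted mice) and of no other. The cause of these differences was not tested. With the replicate number as a block, 5 member probe sets were higher and 6 lower, and 6076 and 5272 of all. Deviations of equally numbered mice correlated at 0.106, 0.0339 and -0.156, and 1 of 3 matched best with its own number. These values show no pairing by number, but 3 mice per group are too few to exclude one. Values near the level of the odorant and pheromone receptors limit what can be said of Egf, Ereg and the dimmer probe sets.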
